A study of Mus musculus with 6 samples.

Results

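Growth factor receptors and their ligands were examined by gene symbol in hepatocyte RNA-seq counts: the receptors Egfr, Erbb2, Erbb3, Met and Fgfr4, and the EGF family ligands Areg, Ereg, Hbegf, Btc and Tgfa. All 10 genes were present among the 53599 gene symbols of the count table, and 9 of them passed the filter on low counts that left 12691 genes for testing. Ereg did not pass it. Fgfr4 is a receptor for fibroblast growth factors (FGFs) and belongs to neither the EGF nor the HGF system. The libraries came from hepatocytes isolated 4 days after retro-orbital injection of an adeno-associated virus (AAV8) into Rosa-LSL-Cas9-EGFP mice, homozygous on a C57BL/6J background, which switch on Cas9 and EGFP in cells that contain Cre. The Sox4 group (n = 3) received AAV8-TBG-HA-Sox4-P2A-Cre, and the empty vector group, called EV (n = 3), received AAV8-TBG-Cre, so both groups carried Cre. TBG is a promoter active in hepatocytes, hence other liver cells were not the intended target of either vector. The methods give an age of 4 to 8 weeks for mice that received Sox4 vectors, and the study used male mice. The genotype label reads WT for EV and Sox4 for the other group. The methods describe 3 animals per group while the labels do not name them, and p-values measure the spread between these libraries.

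Receptors of the EGF family work in pairs. EGFR binds EGF, TGF-alpha, amphiregulin and the other ligands of the list, ERBB2 has no ligand of its own, and ERBB3 has little kinase activity and signals through its partners. The ligands are made as membrane-bound precursors that are cut from the cell surface by ADAM proteases. MET is the receptor for hepatocyte growth factor (HGF), which in the liver is made mainly by stellate cells, and EGFR and MET signalling together drive hepatocyte proliferation after partial hepatectomy. FGFR4 with its co-receptor beta-Klotho receives the gut hormone FGF15 and restrains bile acid synthesis.

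Total counts were between 15090629 and 16964860 per library. Levels are given as CPM, counts per 1e06 counts on library sizes scaled by TMM, a method that sets the bulk of genes equal between libraries. The delivered gene Sox4 had 2, 0 and 3 counts in the EV libraries against 21697, 15097 and 11816 in Sox4 1 to 3. Between 112131 and 135183 CPM came from the 8 hepatocyte markers in EV libraries, against 79935 to 91252 CPM in Sox4 libraries. Of these 8 markers, 6 were called lower, beside 26.0% of all tested genes. Summed levels of cholangiocyte markers ranged over 27.7 to 43.8 CPM in EV against 72 to 85.0 CPM in the Sox4 libraries, with Krt19 and Krt7 at 0 in all EV libraries and at 1 to 9 counts in Sox4.

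Across the 9 tested genes, the edgeR quasi-likelihood test called 3 higher (Erbb2, Fgfr4 and Areg), 2 lower (Egfr and Erbb3) and 4 in neither direction in Sox4. Erbb2 and Areg, with at most 5 and 3 counts in EV, passed the filter (minimum count 10) only through the Sox4 libraries. A call of lower was hardly possible for them, so their calls of higher carry little weight. With a mean count of at least 50 required instead, 1 gene was called higher. Over all tested genes 29.0% were called higher and 26.0% lower, so the share of the list in each direction was near the background. Groups did not overlap in 5 of the 9 genes, against 63.0% of all tested genes. The median log2 fold change was 0.17 for the 9 genes and 0.04 for all tested genes. With library size alone in place of TMM the latter became 0.51, and all other values here rest on TMM unless said otherwise.

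**Figure D1:**
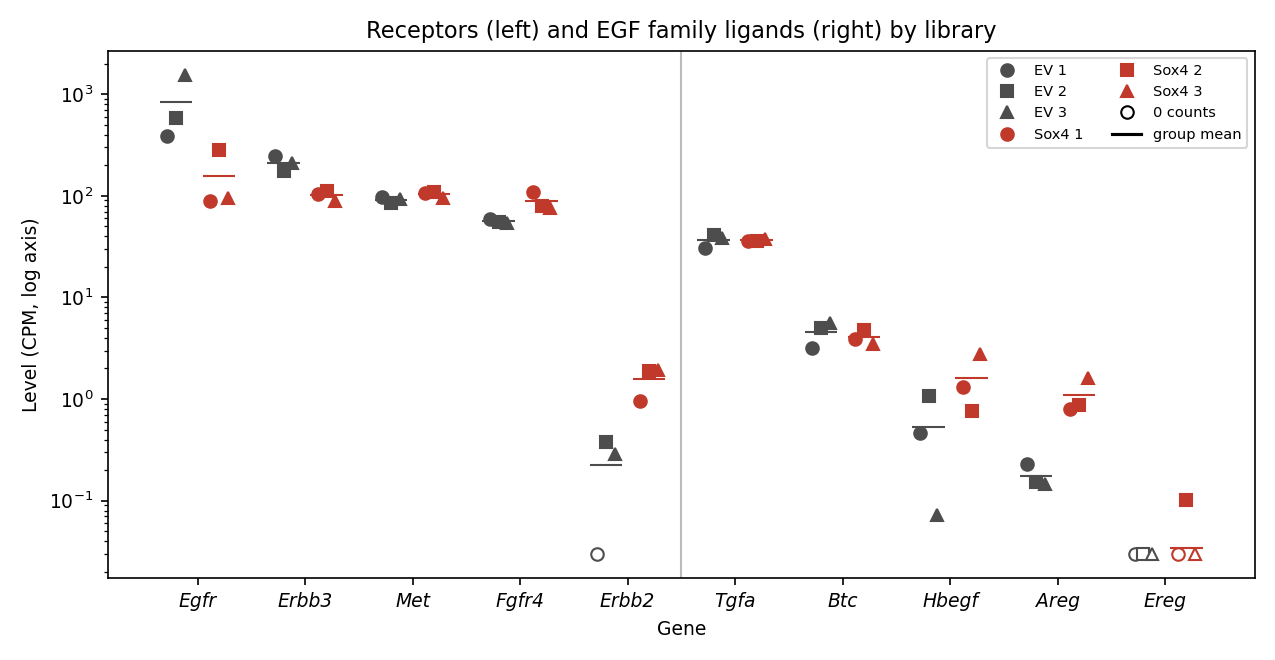
Level of each of the 10 genes in each library, in CPM on a log axis, with EV in grey and Sox4 in red. Symbols mark the library number, horizontal lines the group means and open symbols libraries with 0 counts. The EV libraries spread over 387 to 1553 CPM for Egfr and over only 54.5 to 59.2 CPM for Fgfr4, and the group means of Tgfa are 36.6 and 36.4 CPM.

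Egfr, the receptor at the head of the EGF system in hepatocytes, fell in Sox4. Its level was 387, 577 and 1553 CPM in EV 1 to 3 and 88.0, 285 and 94.2 CPM in Sox4 1 to 3. No Sox4 library reached the lowest EV library, but EV 3 stood far above the other EV libraries and Sox4 2 above the other Sox4 libraries. Group means were 839 ± 625 CPM in EV and 156 ± 112 CPM in Sox4 (SD, n = 3), a log2 fold change of -2.43 (SE 0.81) with an edgeR Benjamini-Hochberg adjusted p of 0.0402. The call was lost without EV replicate 2 (-2.65, edgeR adjusted p = 0.0553), without EV replicate 3 (-1.65, adjusted p = 0.0913), without Sox4 replicate 1 (-2.15, adjusted p = 0.160) and without Sox4 replicate 3 (-2.17, adjusted p = 0.134). It was also lost when replicate numbers were entered as a block, without a filter on low counts, and with library size alone, so that 7 of 14 alternatives called it, and all 14 put it lower in Sox4. The highest EV library held 4.01 times the Egfr level of the lowest. The coefficient of variation over EV libraries was 74.5%, and 0.765% of the 9020 genes averaging 100 counts or more had one as large, the median being 10%.

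The 250 bases before the annotated start of Egfr are shown because it had the largest fitted decrease among the 10 genes. They hold no match to the SOX core letters ACAAAG or ACAATG, to the AP-1 site TGANTCA or to the cyclic AMP response element (CRE) TGACGTCA on either strand, and the sequence, from RefSeq on GRCm38.p6, is chr11:16751953-16752202 on the plus strand.
Egfr: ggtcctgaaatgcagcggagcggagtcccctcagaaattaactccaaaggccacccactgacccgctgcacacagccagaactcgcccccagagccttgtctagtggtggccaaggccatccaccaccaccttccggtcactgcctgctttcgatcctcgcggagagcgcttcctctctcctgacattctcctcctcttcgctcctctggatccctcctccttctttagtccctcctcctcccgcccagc

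Among 9020 genes compared, those whose centred log2 CPM over the 6 libraries lay close to that of Egfr included Tgm1 and Arhgef26, with root mean square differences of 0.49 and 0.52 log2 units. The corresponding differences for Tgfa, the ligand with the highest level per length, were 0.044 for Mfsd1, 0.044 for Exoc3 and 0.045 for Simc1. Tgm1 was the gene nearest to Egfr. The differences were not scaled by how much a gene varies, and Egfr varied more between libraries than Tgfa. The distances for Egfr and those for Tgfa therefore cannot be compared with each other.

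Erbb3, the receptor for neuregulins that pairs with EGFR or ERBB2, also fell. It had 244, 177 and 209 CPM in EV 1 to 3 and 104, 113 and 88.0 CPM in Sox4 1 to 3. The groups were apart, with the lowest EV library above the highest Sox4 library. Means of 210 ± 33.5 and 102 ± 12.5 CPM (SD, n = 3) gave a log2 fold change of -1.05 (SE 0.17, edgeR adjusted p = 0.000292). It was called lower under all 14 alternatives, between -1.17 and -0.58, the latter with library size alone.

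Erbb2, the preferred partner of the other EGF family receptors, rose from a very low level. The EV libraries held 0, 5 and 4 Erbb2 counts, and the Sox4 libraries 19, 37 and 38. Each Sox4 library lay above each EV library, though all 6 stood below 2 CPM. The means were 0.223 ± 0.199 CPM in EV and 1.59 ± 0.552 CPM in Sox4 (SD, n = 3), and the fitted log2 fold change was 2.78 (SE 0.71, edgeR adjusted p = 0.00661), called under 13 of 13 alternatives between 2.21 and 3.34. The gene shares exon bases with Mien1 on the opposite strand, and since the strand setting of the counting is not given in the sources used here, reads of the pair could not be told apart. In bulk libraries, fewer or more cells of a type and a different RNA level per cell cannot be told apart either, and the summed cholangiocyte, Kupffer and stellate marker levels of every Sox4 library lay above those of every EV library. Without Reln, the stellate sums overlapped between the groups. The part of these cells in the Erbb2 counts was not tested.

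The promoter of Erbb2 is given because its transcript went from at most 5 counts to at least 19. These are 236 bases upstream of the first annotated exon, chr11:98412234-98412469 on the plus strand (RefSeq, GRCm38.p6), and the 250-base window they belong to holds none of the searched motifs.
Erbb2: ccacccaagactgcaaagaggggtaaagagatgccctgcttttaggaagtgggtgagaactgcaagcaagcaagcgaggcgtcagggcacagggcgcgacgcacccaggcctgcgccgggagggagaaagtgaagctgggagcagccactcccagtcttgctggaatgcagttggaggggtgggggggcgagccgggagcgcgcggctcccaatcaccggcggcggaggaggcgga

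Met, the HGF receptor, varied little within groups and was not called. Its levels were 98.0, 85.0 and 92.4 CPM in EV 1 to 3 and 107, 108 and 94.5 CPM in Sox4 1 to 3, with overlap between the groups. Means were 91.8 ± 6.50 and 103 ± 7.43 CPM (SD, n = 3), and the log2 fold change was 0.17 (SE 0.09, edgeR adjusted p = 0.226). With library size alone it was 0.64 and called higher (edgeR adjusted p = 0.000886), the one alternative of 14 that called it.

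Fgfr4, the main FGF receptor of hepatocytes, rose by a smaller factor. It had 59.2, 55.4 and 54.5 CPM in EV 1 to 3 and 109.5, 79.8 and 75.3 CPM in Sox4 1 to 3. The EV libraries were almost equal, and Sox4 1 lay above the other Sox4 libraries. Means of 56.4 ± 2.49 and 88.2 ± 18.6 CPM (SD, n = 3) gave a log2 fold change of 0.65 (SE 0.17, edgeR adjusted p = 0.0045), called under all 14 alternatives between 0.46 and 1.12.

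**Figure D2:**
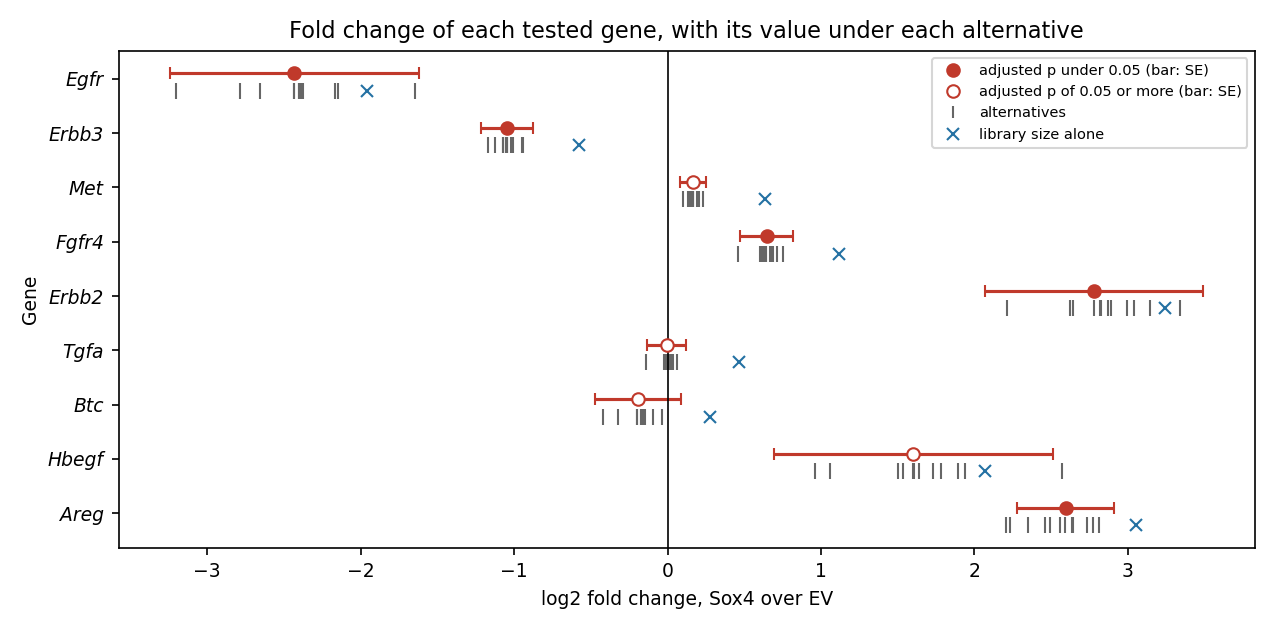
Log2 fold change of Sox4 over EV for the 9 tested genes (points, with SE as bars; filled where the edgeR adjusted p was under 0.05). Grey ticks give the value under each alternative and the blue cross that with library size alone, which lies to the right of the point for every gene and moves Btc and Tgfa above 0. Egfr has the widest range of the called genes, from -3.20 to -1.65.

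Among the ligands, Areg rose. Amphiregulin, its product, is an EGFR ligand made by injured epithelia and by immune cells. Its counts were 3, 2 and 2 in the EV libraries and 16, 17 and 32 in the Sox4 libraries. All EV libraries were at or under the floor of 3 counts, below which a level was not told from 0. The mean of 1.10 ± 0.455 CPM in Sox4 (SD, n = 3) was at least 4.86-fold higher than the mean floor of the EV libraries (edgeR adjusted p = 0.00368), and 13 of 13 alternatives called it. The 8 Kupffer markers summed to 11.4, 20.9 and 24.1 CPM in EV 1 to 3. In Sox4 1 to 3 the sum was 25.6, 49.7 and 59.8 CPM. Of these markers 4 were called higher, beside 29.0% of all tested genes, and 4 were not called. None of them was at 0 in all libraries of a group. The 8 leukocyte markers amounted to 2.77 to 5.88 CPM in EV against 97.5 to 149 in Sox4. Of these, 2 were tested and 1, Ly6d, was called higher, beside 29.0% of all tested genes. Nkg7 was at 0 in all Sox4 libraries and at or under the floor in EV. Without Ly6d, which made up most of that sum in Sox4, they amounted to 0.771 to 2.51 CPM in EV against 1.70 to 5.16 in Sox4. The other tested leukocyte marker, Ptprc, was not called. The part of these cells in the Areg counts was not tested.

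Areg was the one gene of the 7 with a promoter window searched here that held a CRE before its start, shown in capitals. The sequence is chr5:91139349-91139598 on the plus strand (RefSeq, GRCm38.p6), and a match describes the letters and not a bound site.
Areg: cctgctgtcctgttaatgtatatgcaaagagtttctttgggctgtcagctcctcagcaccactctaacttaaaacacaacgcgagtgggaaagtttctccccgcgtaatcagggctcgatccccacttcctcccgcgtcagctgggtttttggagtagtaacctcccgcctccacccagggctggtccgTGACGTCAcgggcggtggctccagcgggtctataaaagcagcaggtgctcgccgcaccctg

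Windows were matched for 7 of the 10 genes (Areg, Btc, Egfr, Erbb2, Fgfr4, Met and Tgfa), and not for Erbb3, Ereg and Hbegf. A SOX core was found in 0 of these 7 windows, against 25.2% of 32851 mouse promoter windows of the same length. An AP-1 site was found in the window of Met, and 6.75% of all windows held one. The match in Met did not lie within the 93 bases of its window that come before the first annotated exon. The CRE was present in 1.55% of all windows. No match of one motif overlapped a match of another in these 7 windows.

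Tgfa, which encodes the autocrine EGFR ligand TGF-alpha of hepatocytes, differed by little between the groups. It had 30.5, 40.8 and 38.5 CPM in EV 1 to 3 and 35.6, 36.2 and 37.6 CPM in Sox4 1 to 3. The Sox4 libraries all lay within the range of the EV libraries. Means were 36.6 ± 5.39 and 36.4 ± 1.01 CPM (SD, n = 3), and the log2 fold change was -0.0065 (SE 0.13, edgeR adjusted p = 0.971), with a sign that turned under 10 of 14 alternatives. With library size alone it was 0.46 and called higher (edgeR adjusted p = 0.00883). An annotated gene on the opposite strand, Gm43917, overlaps its exons.

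Btc, encoding betacellulin, a ligand of EGFR and ERBB4, was not called. Counts of 41, 66 and 78 in EV and of 77, 93 and 69 in Sox4 corresponded to 4.61 ± 1.30 and 4.04 ± 0.645 CPM (SD, n = 3). The log2 fold change was -0.19 (SE 0.28, edgeR adjusted p = 0.573), and it was 0.28 with library size alone.

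Hbegf, whose product is the heparin-binding ligand of EGFR, varied within both groups. It had 6, 14 and 1 counts in EV and 26, 15 and 55 counts in Sox4, and the groups overlapped on the CPM scale. Means were 0.533 ± 0.499 and 1.62 ± 1.05 CPM (SD, n = 3), with a log2 fold change of 1.60 (SE 0.91, edgeR adjusted p = 0.0917). It was called higher in 3 of 13 alternatives, namely without EV replicate 2 (2.57, edgeR adjusted p = 0.0374), without a filter on low counts (1.64, adjusted p = 0.00976) and with library size alone (2.07, adjusted p = 0.0323). Ereg, encoding epiregulin, had 0 counts in all EV libraries and 0, 2 and 0 counts in Sox4, all at or under the floor, and overlaps Gm19610 on the opposite strand.

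To compare genes with each other, CPM were divided by exon length in kilobases from GENCODE M21. In EV the order of this length-scaled level began with Egfr (74.1 ± 55.2), whose libraries overlapped those of Erbb3 (34.9 ± 5.57), and went on with Fgfr4 (15.9 ± 0.703), Met (12.0 ± 0.847), Tgfa (5.64 ± 0.830) and Btc (1.02 ± 0.288), each apart from the next. Areg, Hbegf, Erbb2 and Ereg lay at 0.145 or less in EV, and neighbours among them overlapped. In Sox4 the order of means began with Fgfr4 (24.9 ± 5.25), followed by Erbb3 (16.9 ± 2.08), Egfr (13.7 ± 9.87) and Met (13.4 ± 0.968). Fgfr4 was apart from Erbb3 but overlapped Egfr, which stood at 25.1 against 22.5 for Fgfr4 in Sox4 2. Erbb3 overlapped Egfr, and Egfr overlapped Met. Tgfa remained the ligand with the highest length-scaled level, at 5.61 ± 0.156, with Areg at 0.903 ± 0.375 and Btc at 0.893 ± 0.143 overlapping below it (SD, n = 3 throughout). On this scale Egfr was thus the receptor with the highest mean in EV, and its mean ranked behind Fgfr4 and Erbb3 in Sox4. In Sox4 2 itself Egfr lay above both.

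Shares within a library do not depend on how libraries are scaled. Of the length-scaled counts of the 5 receptors, Egfr took 32.8%, 47.5% and 68.8% in EV 1 to 3 and 11.1%, 31.1% and 14.6% in Sox4 1 to 3. All Sox4 libraries were below all EV libraries, with EV 1 and Sox4 2 close to each other. The mean share of Egfr was 49.7 ± 18.1% in EV and 18.9 ± 10.7% in Sox4 (SD, n = 3). Fgfr4 held 12.8 ± 4.45% in EV and 36.5 ± 8.16% in Sox4, and Met 9.54 ± 3.18% and 19.6 ± 2.12%, both without overlap. As parts of one whole, these shares rise when that of Egfr falls, and Met itself overlapped in CPM and was not called. Erbb3, which fell in CPM, overlapped in share at 27.9 ± 10.8% and 24.5 ± 1.29%. Length scaling sets the order in Sox4, since of raw counts Egfr held the largest mean share there, 32.2%, with Met at 23.7%, Erbb3 at 23.2% and Fgfr4 at 20.5%. Met had 0.373, 0.217 and 0.0877 times the length-scaled level of Egfr in EV 1 to 3 and 1.79, 0.560 and 1.48 times that level in Sox4 1 to 3. Met thus exceeded Egfr in Sox4 1 and Sox4 3 and in no EV library.

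Among the 5 ligands, Tgfa took 81.6 ± 0.903% of length-scaled counts in EV and 72.6 ± 3.80% in Sox4, and Areg 2.20 ± 0.994% and 11.4 ± 3.74% (SD, n = 3), in both cases without overlap. The Tgfa share was lower although its mean level was 36.6 CPM in EV and 36.4 CPM in Sox4. The summed receptor level was 789, 895 and 1909 CPM in EV 1 to 3 and 409, 587 and 354 CPM in Sox4 1 to 3, so the groups were apart. Egfr, called in 7 of 14 alternatives, made up 387, 577 and 1553 CPM of the EV sums. Of the Sox4 sums it made up 88.0, 285 and 94.2 CPM. The receptor sum therefore does not describe the other receptors. The summed ligand level overlapped, at 41.9 ± 6.67 CPM in EV and 43.2 ± 2.01 CPM in Sox4. These shares and sums were compared without a test.

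**Figure D3:**
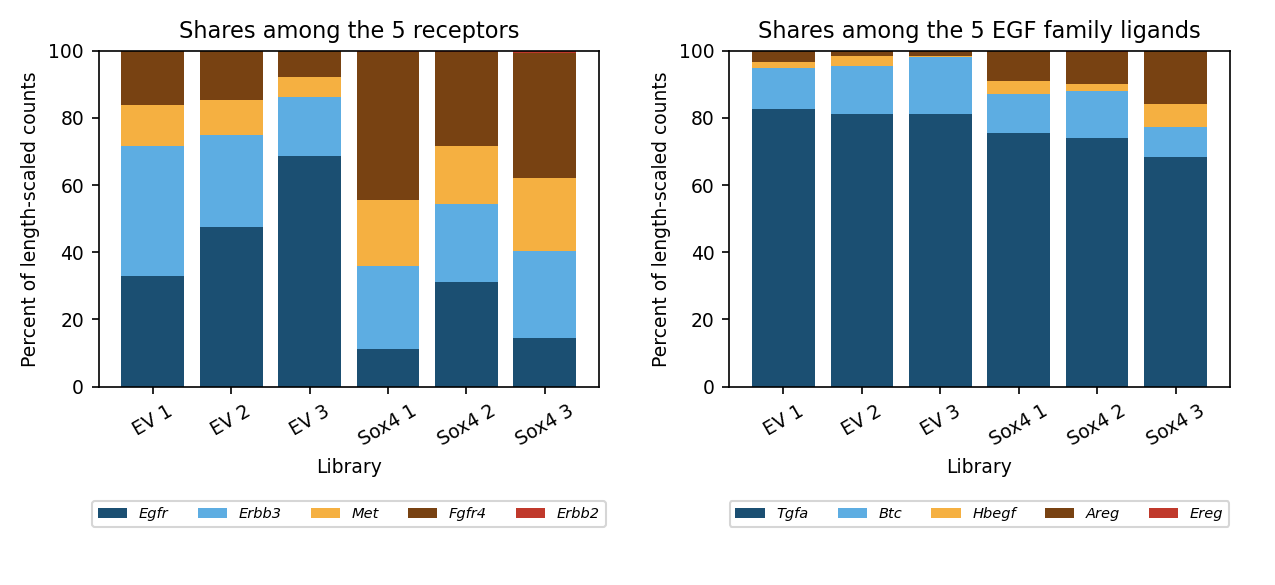
Share of each gene in the length-scaled counts of the 5 receptors (left) and of the 5 EGF family ligands (right), in percent, for each of the 6 libraries. Egfr takes 32.8% to 68.8% of the receptor bar in EV and 11.1% to 31.1% in Sox4, while Tgfa is the largest segment of every ligand bar.

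A wider list of 70 genes of the same pathways was then described, of which 62 were tested. Of these, 27 were called higher, 15 lower and 20 in neither direction, with a median log2 fold change of 0.33 against 0.04 for all tested genes. This is 43.5% higher and 24.2% lower, beside 29.0% and 26.0% of all tested genes. Of the genes called higher, Fgf21, Gab2 and Spry1 passed the filter only through the Sox4 libraries, so a call of lower was hardly possible for them. Scaling moved this split, and with library size alone 39 were higher and 6 lower, while 6468 and 1624 of all 12691 genes were.

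In the rest of the EGF family, Nrg1, a neuregulin ligand of ERBB3 and ERBB4, rose, with 27, 14 and 10 counts in the EV libraries, 133, 248 and 284 in the Sox4 libraries and a log2 fold change of 3.12 (SE 0.53, edgeR adjusted p = 0.000224). Erbb4, its receptor, fell, with 70, 97 and 145 against 28, 36 and 32 counts (-2.26, SE 0.29, edgeR adjusted p = 0.00018). A neuregulin ligand was thus higher in Sox4 while both of its binding receptors, Erbb3 and Erbb4, were lower. Egf and Nrg4 were not called, at log2 fold changes of 0.82 (SE 0.52, edgeR adjusted p = 0.192) and -0.42 (SE 0.083, edgeR adjusted p = 0.112), though Egf was with library size alone (1.29, adjusted p = 0.0468). Epgn and Nrg3 had 0 counts in all libraries, and Nrg2 had counts in Sox4 3 only, at the floor of 3.

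On the HGF side, the activating proteases fell. Hgfac, which encodes the serum protease that cuts HGF precursor into its active form, went from 302 ± 31.0 to 42.7 ± 9.71 CPM (SD, n = 3; log2 fold change -2.82, SE 0.20, edgeR adjusted p = 2.2e-06). Hpn, encoding the membrane protease hepsin that also cuts it, had a log2 fold change of -1.05 (SE 0.19, edgeR adjusted p = 0.000599). Mst1, the HGF-like ligand secreted by hepatocytes, fell by 1.47 on the log2 scale (SE 0.26, edgeR adjusted p = 0.000285). Spint2, an inhibitor of these proteases, rose by 0.63 on the log2 scale (SE 0.14, edgeR adjusted p = 0.00302). Its relative Spint1 had 0 counts in all EV libraries and 6, 13 and 9 in Sox4, at least 2.1-fold above the mean EV floor, and was too low to be tested.

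Hgf itself had 1, 3 and 13 counts in EV and 12, 33 and 75 counts in Sox4, a log2 fold change of 2.24 (SE 1.0) that was not called (edgeR adjusted p = 0.0519), and 7 of 13 alternatives called it higher, among them those without EV replicate 3 (3.65, edgeR adjusted p = 0.0162) and without Sox4 replicate 1 (2.67, adjusted p = 0.0127). It is a gene of stellate cells. Of their 8 markers 3 were tested and 2, Reln and Ecm1, called higher, beside 29.0% of all tested genes. Hand2 was at 0 in all EV libraries and at 0, 2 and 3 counts in Sox4, all at or under the floor. Together the 8 markers had 10.4 to 46.9 CPM in EV against 83.9 to 141 in Sox4. Without Reln, which made up most of that sum, the sum was between 3.31 and 9.37 CPM in EV and between 8.62 and 33 in Sox4. In that reduced list, 1 of 2 tested markers was called higher. Endothelial markers overlapped, at 18.6 to 31.2 CPM in EV against 16.0 to 36.2 in Sox4. Of these 8 markers, 2 were called higher and 1 lower, beside 29.0% and 26.0% of all tested genes. The part of these cells in the Hgf counts was not tested. Mst1r, the receptor of the Mst1 product, had 6, 8 and 5 counts in EV and 26, 10 and 12 counts in Sox4 and did not pass the filter.

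**Figure D4:**
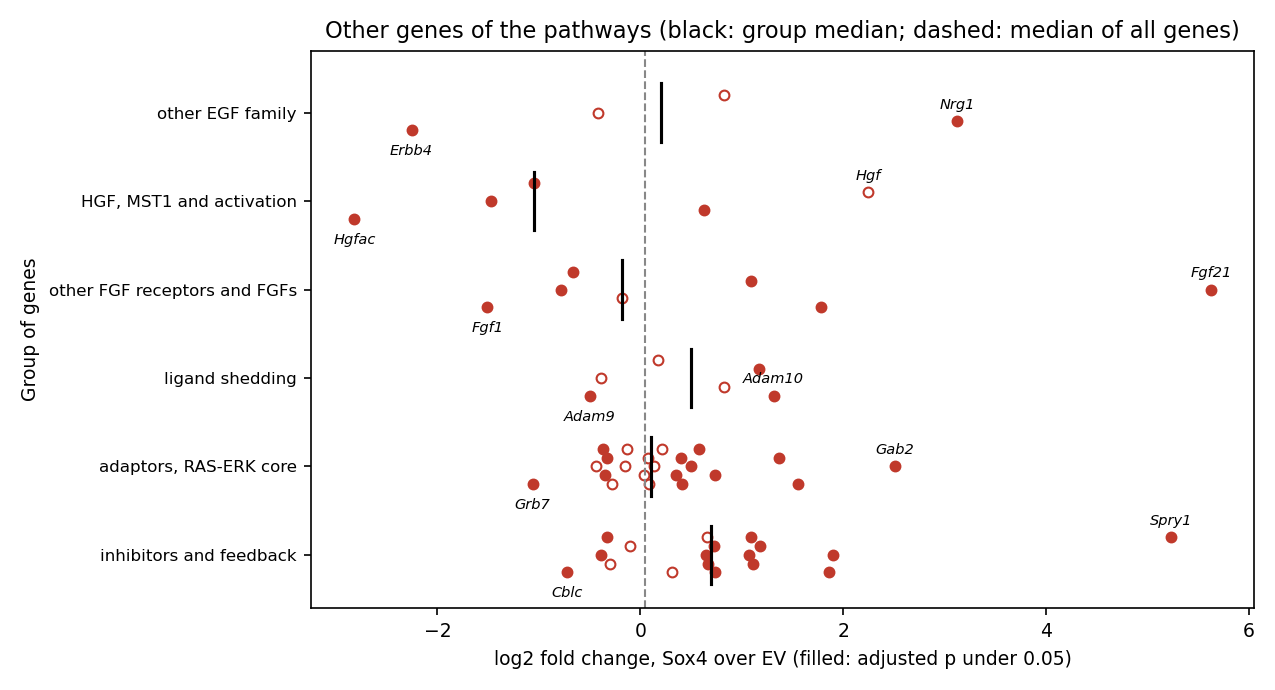
Log2 fold change of Sox4 over EV for the 62 tested genes of the wider list, by group, with filled points for an edgeR adjusted p under 0.05. Black bars give the median of each group and the dashed line the median of all tested genes, 0.04. The group around HGF has its median at -1.05, and the largest increases are those of Fgf21 and Spry1.

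Of the other FGF genes, Fgf21, a stress-induced hormone of the liver, rose, with 5, 2 and 6 counts in the EV libraries, 98, 274 and 603 in the Sox4 libraries and a log2 fold change of 5.63 (SE 0.82, edgeR adjusted p = 0.00222), although limma-voom did not call it (5.25, adjusted p = 0.0864). Fgfr1 rose from 9.96 ± 3.01 to 34.3 ± 11.6 CPM (SD, n = 3; 1.78, SE 0.38, edgeR adjusted p = 0.000914), and Fgfrl1, a receptor without a kinase domain, rose by 1.09 on the log2 scale (SE 0.15, edgeR adjusted p = 0.000142). Lower were Fgf1, Fgfr3 and Klb, with log2 fold changes of -1.51, -0.78 and -0.66, with Fgf1 going from 90.9 ± 11.1 to 31.9 ± 4.69 CPM. Klb, which encodes the beta-Klotho co-receptor of FGFR4, thus fell while Fgfr4 rose, but with library size alone Klb (-0.19) and Fgfr3 (-0.31) were no longer called. Fgfr2 was not called (-0.18, edgeR adjusted p = 0.552) except without Sox4 replicate 3 (-0.50, adjusted p = 0.0493), and Kl and Fgf15, the latter an intestinal hormone, had 0 counts throughout.

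Ligand shedding genes had 2 of 6 higher and 1 lower, a share of 33.3% higher that was near the 29.0% of all tested genes. Adam10, a protease that releases betacellulin and EGF, rose from 31.0 ± 2.14 to 77.0 ± 5.85 CPM (SD, n = 3; log2 fold change 1.31, SE 0.087, edgeR adjusted p = 1.2e-05). Rhbdf1, which encodes a rhomboid-like protein that carries ADAM17 to the cell surface, rose by 1.17 on the log2 scale (SE 0.079, edgeR adjusted p = 0.000169). Adam9 was lower at -0.50, a call lost with library size alone (-0.028).

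Receptor adaptors and the RAS-ERK core had 9 of 22 genes higher (40.9%, beside 29.0% of all tested genes) and 4 lower (18.2%, beside 26.0%). The largest increases were in Gab2, a docking protein (1, 5 and 2 counts in EV, 31, 12 and 27 in Sox4; 2.51, SE 0.54, edgeR adjusted p = 0.00836), and in Nras (1.55, SE 0.19, edgeR adjusted p = 3.7e-05). Grb7, an adaptor that binds ERBB2 and ERBB3, fell from 155 ± 31.7 to 74.1 ± 14.5 CPM (-1.06, SE 0.24, edgeR adjusted p = 0.000968; SD, n = 3). Map2k1, the kinase MEK1, was lower at -0.37, but at 0.10 and not called with library size alone and not called without Sox4 replicate 2 (edgeR adjusted p = 0.0546).

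Receptor inhibitors, degradation and feedback genes had 11 of 18 tested members higher (61.1%, beside 29.0% of all tested genes) and 3 lower (16.7%, beside 26.0%), with a median log2 fold change of 0.69. Spry1, a feedback inhibitor of receptor signalling to ERK, rose, with 6, 2 and 9 counts in the EV libraries and 265, 372 and 327 in the Sox4 libraries (5.23, SE 0.47, edgeR adjusted p = 2.7e-06). Cblb, a ubiquitin ligase that marks receptors for degradation, rose by 1.90 on the log2 scale (SE 0.45, edgeR adjusted p = 0.00114). Cblc and Lrig1 were lower, with log2 fold changes of -0.72 and -0.39. With library size alone neither was called, Cblc at -0.25 and Lrig1 at 0.083, and Lrig1 was also not called without EV replicate 1 (edgeR adjusted p = 0.0551), EV replicate 2 (adjusted p = 0.148), Sox4 replicate 2 (adjusted p = 0.121) or Sox4 replicate 3 (adjusted p = 0.0775). Dusp6 and Errfi1 were singled out after their values were seen. Dusp6, the phosphatase that ERK signalling induces and that acts on ERK, rose from 62.2 ± 10.5 to 226 ± 24.2 CPM (SD, n = 3; 1.86, SE 0.17, edgeR adjusted p = 9.7e-06), and all 14 alternatives called it. Errfi1, encoding the EGFR inhibitor MIG6, was at 1461 ± 325 and 1188 ± 165 CPM and was not called (-0.30, SE 0.23, edgeR adjusted p = 0.22).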

How the data were processed

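The authors aligned reads to GRCm39 with STAR 2.7.10b and counted them per gene with featureCounts 2.0.1, per the labels. The annotation and the settings for strand and multimapping reads are not given in the sources used here. The deposited raw counts were used, and a deposited normalized table, whose header is shifted against its columns, was not. Genes were filtered with filterByExpr (minimum count 10, minimum total 15), scaled by TMM and compared with the quasi-likelihood F test of edgeR 4.0.16 (R 4.3.3), after a test on simulated data. Adjusted p-values are Benjamini-Hochberg over all 12691 genes, with a threshold of 0.05. Other fits used limma 3.58.1 and DESeq2 1.42.0. SEs were computed from the library spread of log2 CPM, to which a prior count of 2 was added. The floor of 3 counts covers counting error only. No pair of libraries within a group was alike within sampling noise. Lengths and overlapping genes came from GENCODE M21 (GRCm38) and not from the build used for counting. In each group of the wider list, up to 2 called genes per direction were named by size of change, with all EGF, HGF and FGF receptors and ligands above the floor. For the highest receptor and ligand per length, the 3 genes nearest in pattern were to be named, of which 1 is not reported here. Members and lists were chosen with earlier results of these data known.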

Additional observations from a re-analysis of the deposited data

How the results depend on the processing

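Scaling mattered most. With library size alone, 6 genes of the receptor and ligand list were higher and 1 lower, against 3 and 2, in the wider list 6 were lower against 15, and over all genes 6468 were higher and 1624 lower, against 3684 and 3306. Signs turned there for Btc (0.28), Tgfa (0.46), Nrg4 (0.049), Fgfr2 (0.29), Map2k1 (0.10), Lrig1 (0.083) and Errfi1 (0.17). The replicate block left 1 lower gene on the list, since Egfr was lost (-2.38, edgeR adjusted p = 0.121), and 1 was left without a filter as well (Egfr at -2.39, adjusted p = 0.139). Correlations of the deviations of same-numbered libraries were 0.27, -0.090 and 0.13, so the numbers were not taken as pairs, and the block called 7362 genes against 6990. With a mean count of at least 50, 1 gene was higher, because Erbb2 and Areg were not tested. Hbegf, not called in the main fit, was not tested either. Leaving out each library gave 1 to 2 lower and 3 to 4 higher genes on the list. Tgfa, near 0 throughout, turned sign with limma-voom (0.0030), no filter (0.034), a mean count of at least 50 (0.022), the replicate block (0.0030) and limma on recomputed median-of-ratios values (0.0032), and lay between -0.14 and 0.063 when a library was left out. The limma fit on recomputed values and the marker sums without Reln or Ly6d were chosen after seeing the data, the former in place of the deposited normalized values, which were not run. Shares of raw counts, without length scaling, put Egfr at 32.2% of receptors in Sox4, Fgfr4 at 5.52% and 20.5% of receptors, Areg at 0.441% and 2.51% of ligands and Tgfa at 87.4% and 84.3% of ligands in EV and Sox4, and with the longest transcript as length Tgfa was at 84.7% and 76.7%. Depth limits Erbb2, Areg, Hbegf and Ereg, whose means were below 2 CPM.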
